A study of Mus musculus with 3 samples.

Results

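Distal CTCF-enriched regions of mouse ES cells that were highly methylated on the immunoprecipitated DNA are described here. The autosomes of mm9 (NCBIM37) were divided into fixed bins of 200 bp, and 7062395 bins held a CpG that was listed in any library. A bin was called enriched if the coverage, the number of observations per listed CpG, reached 15 in each CTCF ChIP-BisSeq replicate and did not exceed 50 in the REST knockout library. This left 27133 bins, of which 3447 had their centre within 1 kb of a transcription start of a protein-coding gene and 23686 were distal. Of the distal enriched bins, 1323 (5.59%) had more than 60% methylated observations in each replicate and are called highly methylated. They were compared with 5895 intermediate bins, at 20% to 60% in each replicate, and 9819 low bins, under 20% in each. In the remaining 6649 bins the replicates fell into different classes. ChIP coverage and ChIP methylation chose all of these bins, so their values are given as a description. No bin on chromosome 18 was named, and orders among named bins leave it out.

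CTCF ChIP-BisSeq sequences bisulfite-treated DNA that was precipitated with an anti-CTCF antibody, so that methylation is read on CTCF-associated fragments. It was done in 2 replicates of wild type ES cells of a mixed 129-C57Bl/6 background, each library from pooled ChIP experiments, with Drosophila DNA added as carrier. WG-BisSeq, whole genome bisulfite sequencing, was done once, in a REST knockout ES cell line of the strain Black Agouti 129. All cells were grown on feeders or gelatine in medium with serum and LIF. Genotype, strain and assay differ together between ChIP-BisSeq and WG-BisSeq, and their parts in any difference cannot be told apart. The libraries held 13411280 and 25262179 observations in ChIP-BisSeq replicates 1 and 2 and 273375318 in the REST knockout. Over the autosomes, 44.9%, 51.5% and 63.0% of the observations were methylated.

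CTCF is a zinc finger protein that binds a long DNA motif and takes part in insulation and chromosome looping. Methylation of a CpG inside the motif can prevent binding, as at the imprinted H19 locus, and CTCF-bound distal regions are best known for low methylation. In rodents, B2 short interspersed elements have spread copies of CTCF motifs through the genome. The label of the bins was checked against the DNA sequence, which the selection did not use. An exact match to the CTCF consensus was found in 391 highly methylated bins, or 29.6% (95% exact interval 27.1% to 32.1%), against 0.588% of all autosomal bins with a listed CpG. Matches were searched on both strands over positions 5 to 17 of a 20 bp frame, and positions 5 and 6 can hold a CpG.

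The bins with 1 exact match, no 31-mer that occurs elsewhere in the genome, at least 20 knockout observations and the highest ChIP coverage are shown first, because their sequence is unique and their values rest on many observations. The frame is written 5′ to 3′ on the strand of the motif, and capitals mark a CpG.
chr4:73877560-73877579 (+), 10901 bp from the start of Kdm4c: atgctgccacctggtggtac
chr17:30940806-30940825 (+), intron of Dnahc8: atggCGccctcttctggcct
chr5:149191772-149191791 (-), intron of Slc7a1: ccaaCGccctctgctggcct
chr4:57464923-57464942 (-), intron of Palm2: ctactgccacctcctggttg
chr10:20635504-20635523 (-), 36891 bp from the start of Ahi1: ctagtgccacctggtggctg
In 3 of these 5 frames positions 5 and 6 read TG and the frame holds no CpG, so the methylation of the bin was measured beside the motif.

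The methylation of these 5 bins differed most in the REST knockout library. The choice had set both ChIP-BisSeq replicates over 60% but did not limit knockout methylation, and most of these bins had fewer knockout observations. A wider spread there thus follows in part from the choice. The bin near Kdm4c, a histone demethylase gene, had 55 of 77 observations methylated in replicate 1, 66 of 101 in replicate 2 and 15 of 25 in the knockout (60%). The bin in Dnahc8, which encodes an axonemal dynein heavy chain, had 182 of 246, 426 of 584 and 92 of 113 (81.4%). The bin in Slc7a1, which encodes a transporter of cationic amino acids, had 66 of 98, 87 of 144 and only 6 of 39 (15.4%, 95% exact interval 5.86% to 30.5%). Palm2, a paralemmin gene, had 41 of 60, 39 of 64 and 44 of 68 (64.7%). The bin near Ahi1, a gene of the primary cilium, had 74 of 120, 93 of 135 and 20 of 20. With both replicates over 60% by choice, 1 of the 5 bins was low and another was fully methylated in the knockout library. Exact intervals here and below reflect counting error alone, and would be too narrow if amplified copies of a molecule were counted as separate observations. Whether they were is not given in the sources used here.

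The whole bins of Dnahc8 and Slc7a1 are given on the plus strand with the match in capitals, to show the CpGs around it.
chr17:30940800-30940999: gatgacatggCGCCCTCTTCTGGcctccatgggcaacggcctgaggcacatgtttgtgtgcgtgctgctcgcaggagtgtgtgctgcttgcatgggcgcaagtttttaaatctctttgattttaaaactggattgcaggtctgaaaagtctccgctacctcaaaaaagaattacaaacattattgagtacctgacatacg
chr5:149191600-149191799: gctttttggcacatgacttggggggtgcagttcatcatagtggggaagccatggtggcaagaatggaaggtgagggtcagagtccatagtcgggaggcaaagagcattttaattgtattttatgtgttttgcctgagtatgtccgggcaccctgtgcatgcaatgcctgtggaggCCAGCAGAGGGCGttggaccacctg
The first holds 7 listed CpGs and the second 3, of which 1 each lies in the match.

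The letters of the matches differed between the classes. The share of matches with a CpG at positions 5 and 6 was lowest in highly methylated bins and highest in low bins. Autosomal matches include those in bins without a listed CpG, which could not enter a class. Their shares are therefore not a like reference for the classes. A CpG inside the match also enters the bin methylation that defined the classes, and such CpGs were less methylated than others, as given below. How much of the difference comes from this choice was not tested. The 391 highly methylated bins with a match held 398 matches, and 79 of these (19.8%) had a CpG at positions 5 and 6. The share was 46.0% of 1588 matches in intermediate bins, 57.7% of 3103 in low bins and 22.5% of all 63589 autosomal matches. The most frequent variants among highly methylated bins are listed over the 13 searched positions, with the CpG in capitals.
164 matches: tgccctcttctgg
41 matches: CGccctcttctgg
29 matches: tgccctctgctgg
17 matches: tgcccccttctgg
The first variant made up 41.2% of the matches in highly methylated bins, 12.7% in intermediate bins, 4.29% in low bins and 58.2% in the autosomes. The second differs from it only at position 5, where a C completes the CpG, and made up 10.3%, 15.1%, 6.70% and 15.1%. These 4 variants were chosen for their number in the highly methylated bins, so the order among them and their shares by class are a description. Repeat families were not annotated.

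**Figure D1:**
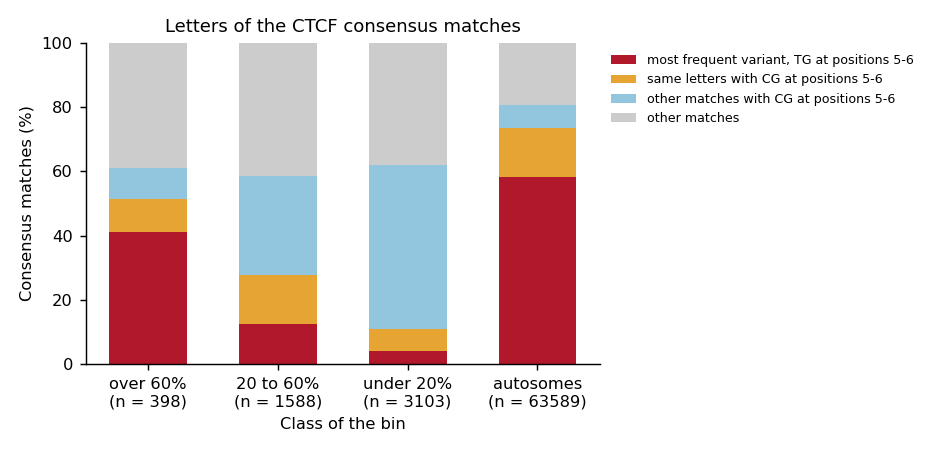
Share of CTCF consensus matches (%, y axis) by their letters, for matches in distal enriched bins over 60%, at 20 to 60% and under 20% methylation and for all autosomal matches (x axis, number of matches in brackets). The most frequent TG variant takes 41.2% of the first bar and 4.29% of the third, and other matches with a CpG grow from 9.55% to 51.0%.

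The same matches were also counted by variant, which adds no independent support. The 4 variants were picked for their number in highly methylated bins, so their contrast with the other matches was in part fixed by that choice. Of 780 distal enriched bins with the first TG variant, 163 (20.9%) were highly methylated and 133 (17.1%) were low. Its CpG counterpart lay in 670 distal enriched bins, of which 41 (6.12%) were highly methylated and 208 low. Bins with matches outside the 4 variants numbered 4986, and 144 (2.89%) of them were highly methylated against 2646 (53.1%) low. Few of the 34694 autosomal bins with the first variant were distal enriched at all (2.25%), compared to 7.43% for its CpG counterpart and 35.9% for matches outside the 4 variants. These autosomal bins include bins without a listed CpG, which could not be enriched. Bins with the CpG counterpart always hold a CpG, so part of this contrast was fixed in advance. The number of CpGs per bin moved with the variant. Among bins with a single CpG, 95 of 337 with the first variant (28.2%), 71 of 1129 with another match (6.29%) and 410 of 3559 without a match (11.5%) were highly methylated. Among bins with 4 or more CpGs the shares were 10.2%, 2.25% and 1.97%.

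Bins with the first variant shared sequence with other places of the genome. Of the 163 highly methylated bins that held it, 118 (72.4%) contained a 31-mer found elsewhere, against 34 of 144 (23.6%) of those with matches outside the 4 variants. Over all 1323 highly methylated bins, 419 (31.7%) contained such a 31-mer, compared to 17.2% of intermediate and 12.8% of low bins. In 30 of them (2.27%) at least 50% of the 31-mers occurred elsewhere. How reads from copies were placed after bisulfite conversion was not tested. Without the bins that share a 31-mer, 20.9% of highly methylated bins had a match, and with them alone 48.2%. The shares were 23.1% and 44.7% in intermediate bins and 30.0% and 41.1% in low bins. Highly methylated bins thus had the lowest share without shared 31-mers and the highest with them.

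Many highly methylated bins held no exact match, as in the other classes, where 26.8% of intermediate and 31.4% of low bins held 1. With 1 mismatch allowed 49.4% of highly methylated bins matched, against 1.98% of all bins, 52.5% of intermediate and 61.1% of low bins. With matches up to 200 bp from the bin 50.0% did, against 1.81% of all bins, 42.2% of intermediate and 41.5% of low bins. In 661 highly methylated bins no match lay within 200 bp. Their median coverages were 20.7 and 24.5 in replicates 1 and 2, and those with a match in the bin had 20.3 and 27.0, which is a description, since coverage chose the bins.

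Highly methylated bins were poor in CpGs. The median was 2 CpGs with a range of 1 to 8, and 576 bins (43.5%) held 1 CpG. Of the distal enriched bins with 1 CpG, 11.5% were highly methylated, and the share fell to 6.72% with 2 CpGs, 4.56% with 3 and 2.13% with 4 or more. The median GC content was 45.5%, compared to 48.0% in intermediate and 50.0% in low bins. With few CpGs per bin, each value rests on few observations. The median number per bin was 39 in replicate 1, 45 in replicate 2 and 7 in the REST knockout.

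The methylation that defined the bins is given as a description. Its median over bins was 80.0% in replicate 1 (quartiles 71.1% and 90.0%) and 72.7% in replicate 2 (66.3% and 81.3%), or 76.4% ± 5.14 (SD, n = 2). Replicate 1 was higher in 909 bins (68.7%) and replicate 2 in 397. Replicate 1 was also higher in 69.4% of intermediate bins, but in only 51.7% of low bins. The exact 95% interval lay above 60% in both replicates for 384 bins, so that most bins were over the limit by less than their counting error in at least 1 replicate. In 10 bins every observation was methylated in both. Bins just inside the limit were at 60.1% (chr10:117233200-117233399, near Nup107), 60.2% (chr2:155097800-155097999, in an intron of Pigu) and 60.3% (chr1:162161200-162161399, in an intron of Rabgap1l) in the lower replicate, and the 3 nearest outside were all at 60%.

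Single CpGs of the bins are given as a description, since their mean chose the bins. In the bins with at least 2 CpGs, 1808 CpGs had 10 or more observations in each replicate. Of these 1223 (67.6%) were over 60% in both replicates and 5 (0.277%) were under 20% in both. The median difference between the highest and the lowest CpG of a bin was 25.2 percentage points in replicate 1 and 21.7 in replicate 2. In 35 of 625 bins it was over 50 points in both.

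CpGs inside the CTCF motif were less methylated than CpGs outside of it. Over CpGs inside a match with at least 10 observations, 57.1% of the summed observations were methylated in replicate 1 (75 CpGs) and 52.0% in replicate 2 (79 CpGs) in highly methylated bins, or 54.6% ± 3.57 (SD, n = 2). CpGs outside the match, from all highly methylated bins with a match, had 80.2% and 75.0%, or 77.6% ± 3.65. The difference was -23.1 ± 0.0839 points (SD, n = 2), with lower values inside in both replicates, and has no test. It was -25.3 ± 3.98 in intermediate and -5.54 ± 1.61 in low bins. The bins were chosen on the mean over these CpGs but not on the difference between them. The REST knockout library, which was not used for the choice by methylation, had 44.0% inside (24 CpGs) and 63.7% outside (174 CpGs), a difference of -19.6 points. Only 80 of the 391 bins held a CpG inside the match, so the comparison was also made within the same bins, chosen after the data were seen. Inside and outside CpGs had 54.1% and 81.4% in replicate 1 (66 bins), 50.0% and 78.4% in replicate 2 (72 bins) and 41.3% and 69.2% in the knockout (16 bins). The inside was lower in 54, 67 and 13 of these bins. By distance from the centre of the match, methylation in replicates 1 and 2 and the knockout was 64.5%, 58.7% and 46.9% within 10 bp and 78.5%, 72.3% and 61.7% at 11 to 30 bp. Beyond 30 bp it changed little.

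**Figure D2:**
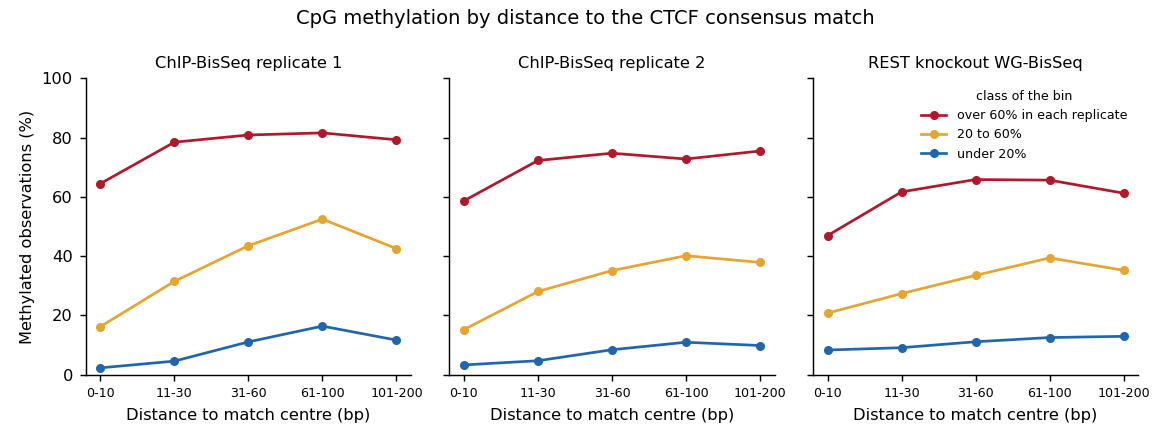
Methylated observations (%, y axis) of CpGs by distance to the centre of the CTCF consensus match (bp, x axis) in each library, with a line per class of bin. In highly methylated bins the values within 10 bp (64.5%, 58.7% and 46.9%) lie below those at 11 to 30 bp in all 3 libraries.

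Motif CpGs at both ends of this range are shown to make the contrast visible. The following frames held the most methylated motif CpGs, by the lower replicate, among those with at least 10 observations in each replicate.
chr2:146240579-146240598 (+), intron of Ralgapa2: acatCGccatctggtgggat
chr1:192826280-192826299 (-), 23125 bp from the start of Vash2: cctaCGccctctgctggctg
chr3:88078114-88078133 (-), intron of Rhbg: cttaCGccctcttctggcct
The CpG in Ralgapa2, a gene for a subunit of the Ral GTPase activating complex, had 35 of 40, 35 of 39 and, in the knockout, 2 of 6 observations methylated. Near Vash2, a vasohibin gene, the counts were 34 of 40, 28 of 32 and 12 of 19. In Rhbg, which encodes an ammonium transporter, they were 18 of 19, 29 of 39 and 7 of 9. These 3 CpGs were methylated inside the motif on DNA that was precipitated with the CTCF antibody.

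By the higher replicate and within the same limits, the least methylated motif CpGs of highly methylated bins lay in the following frames.
chr9:122601182-122601201 (+), between genes: atgaCGccctcttctggctt
chr5:149191772-149191791 (-), intron of Slc7a1: ccaaCGccctctgctggcct
chr6:119504659-119504678 (+), 10364 bp from the start of Wnt5b: ggagCGccccctagtggcct
On chromosome 9 the motif CpG had 0 of 23 and 3 of 26 observations methylated in replicates 1 and 2, while the bin as a whole had 51 of 78 and 54 of 86. In Slc7a1 the motif CpG had 0 of 22, 4 of 29 and 1 of 18 in the knockout. Near Wnt5b, the gene of a Wnt ligand, it had 8 of 43, 2 of 39 and 2 of 11, and the bin 102 of 148, 119 of 176 and 62 of 86. These 3 motif CpGs were low in bins that were highly methylated through their other CpGs. Matches with the same letters at positions 5 to 17 occurred in both groups, as Vash2 and Slc7a1 show.

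The REST knockout library gives a measurement of methylation that was not used for the choice. At least 10 observations were available in 575 of the 1323 highly methylated bins (43.5%), and 110 bins had none. The median over the 575 bins was 62.5% (quartiles 50.0% and 74.3%). Of these bins 310 (53.9%) were over 60%, 253 (44.0%) were at 20% to 60% and 12 (2.09%) were under 20%. The median was 38.1% in 3638 intermediate bins, of which 12.6% were over 60%, and 14.5% in 6808 low bins, of which 2.35% were over 60%. The order of the classes was thus the same in a library without CTCF precipitation, with medians that lay far apart. With 1, 2, 3 and 4 or more CpGs per bin, the median of highly methylated bins was 63.6%, 62.5%, 60.6% and 63.4%. A match in the bin (median 63.6%, 159 bins), none within 200 bp (62.8%, 303 bins), a shared 31-mer (61.1%, 154 bins) and no shared 31-mer (63.0%, 421 bins) gave like values.

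**Figure D3:**
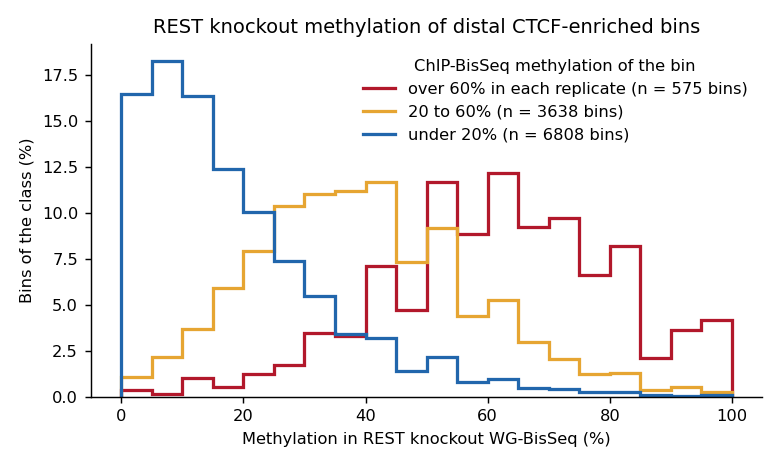
Percentage of bins of a class (y axis) by methylation in the REST knockout library (%, x axis, steps of 5 points), for distal enriched bins with at least 10 observations there. The highly methylated bins, with a median of 62.5%, spread over the upper part of the axis, to the right of intermediate (38.1%) and low bins (14.5%).

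Among the highly methylated bins with at least 20 knockout observations, leaving out chromosome 18, the lowest and the highest show this spread, with ties ordered by the number of observations. Golga7, a gene for a Golgi protein, had an intronic bin at chr8:24353400-24353599 with 49 of 60 and 63 of 104 observations methylated in replicates 1 and 2, and 3 of 26 in the knockout (11.5%). Within that limit the bin in Slc7a1 described above was next, and the bin at chr4:106547200-106547399, which lies 36006 bp from the start of Ssbp3, had 10 of 46 (21.7%). At the other end stood the bin near Ahi1 described above, with 20 of 20, and 2 further bins. An intronic bin of Adamts20, a metalloprotease gene (chr15:94173000-94173199), was methylated in 72 of 85, 77 of 89 and 22 of 22 observations. An intronic bin of Ctcfl, the germline paralogue of CTCF (chr2:172923200-172923399), was methylated in 15 of 15, 31 of 33 and 29 of 30. Neither of these 2 bins holds a consensus match, even with 1 mismatch, but an exact match lies within 100 bp of the bin in Adamts20.

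Each replicate was also read in bins that the other replicate had chosen, which removes the choice from the value read. Replicate 1 alone was over 60% in 3361 distal enriched bins. In replicate 2 these had a median of 54.1%, with 1323 (39.4%) over 60% and 110 (3.27%) under 20%. In the 1554 of these bins that were tested against the knockout library, replicate 2 had a median of 53.0% and the knockout 52.8%. By Fisher's exact test per bin with Benjamini-Hochberg adjustment and a difference of at least 20 points, replicate 2 was lower in 96 (6.18%; background over all enriched bins 14.8%) and higher in 128 (8.24%; background 1.73%). In the other direction, replicate 2 alone was over 60% in 1712 bins, and replicate 1 had a median of 75.0% there, with 77.3% of the bins over 60%. Against the knockout library, replicate 1 had a median of 73.3% and the knockout 59.4% in 740 tested bins. Replicate 1 was lower in 15 (2.03%; background 11.3%) and higher in 170 (23.0%; background 5.93%). Bins chosen by replicate 1 were thus about as methylated in replicate 2 as in the knockout, while bins chosen by replicate 2 were higher in replicate 1 than in the knockout. The tests compare libraries, not conditions.

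In the REST knockout library, highly methylated bins lay in methylated surroundings and most did not stand out as a dip. Each enriched bin with enough observations was compared with its flanks at 200 to 1000 bp by Fisher's exact test. A bin was called when the adjusted p was under 0.05 and the difference reached 20 points. Of 17663 enriched bins 53.6% were called lower and 2.19% higher than their flanks. Of 565 highly methylated bins, 116 (20.5%) were lower and 32 (5.66%) higher. The median was 62.5% in the bin and 71.9% in the flanks, with a median difference of -7.62 points, and 372 bins lay below their flanks. Intermediate bins were lower in 55.2% of 3595, with a median difference of -27.5 points, and low bins in 67.1% of 6769, with -35.6 points. The number of observations per bin also moved with the class, with medians of 21, 27 and 39. Among bins with 20 to 40 observations, 42 of 178 highly methylated bins (23.6%) were lower, against 59.5% of all 4865 enriched bins at this depth, 57.3% of intermediate and 71.5% of low bins. When replicate 1 was left out of the choice, 526 of 2822 bins (18.6%) were lower and 181 (6.41%) higher, against 46.6% and 2.99% of the bins then enriched. Without replicate 2, 579 of 1836 (31.5%) were lower and 70 (3.81%) higher, against 52.1% and 2.37%. The test compares positions within 1 library, and bins are not replicates.

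**Figure D4:**
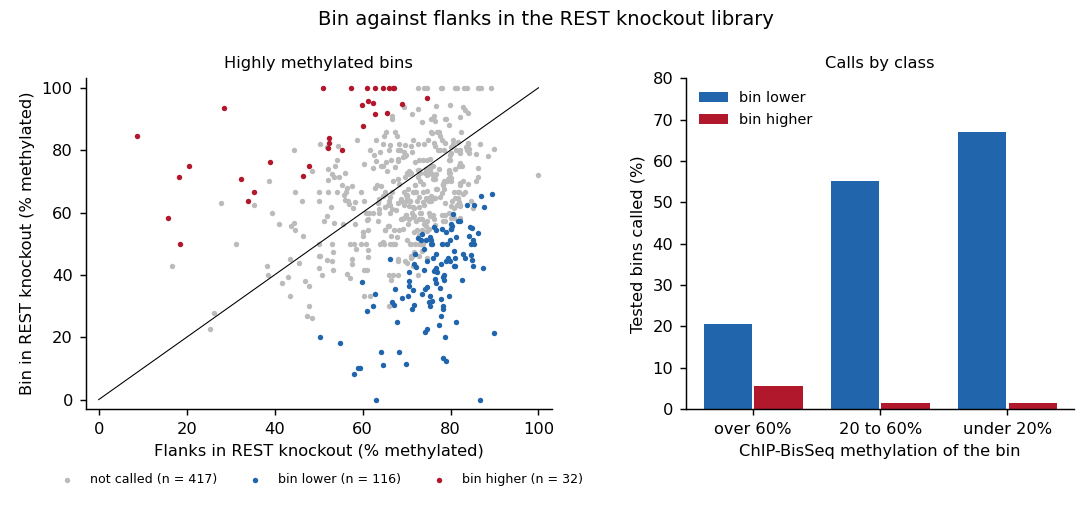
Left, methylation of each highly methylated bin (%, y axis) against its flanks (%, x axis) in the REST knockout library, with called bins in colour and the diagonal for equal values. Right, tested bins called lower or higher than their flanks (%, y axis) by class (x axis), 20.5% and 5.66% for highly methylated, 55.2% and 1.42% for intermediate and 67.1% and 1.52% for low bins.

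The 3 largest dips in the knockout library outside chromosome 18, on which no bin is named, are given with their ChIP-BisSeq values. At chr8:129429400-129429599, 40223 bp from the start of Tomm20, the counts were 42 of 56 and 30 of 43 in replicates 1 and 2, but 0 of 12 in the knockout (upper limit of the 95% exact interval 26.5%), against 86.8% of 53 observations in the flanks (Fisher's exact test, adjusted p = 5.90e-08). The bin at chr1:36511400-36511599, 9384 bp from the start of Lman2l, which encodes a cargo receptor of the secretory pathway, had 20 of 21, 15 of 21 and 3 of 14, against 89.9% in the flanks (adjusted p = 1.97e-06, Fisher's exact test). In an intron of Otog, which encodes a protein of the inner ear (chr7:53507400-53507599), the counts were 29 of 39, 27 of 42 and 2 of 15, against 78.2% (adjusted p = 1.48e-06, Fisher's exact test). These 3 bins were picked for the largest drop below their flanks in the knockout, and the choice had set both ChIP-BisSeq replicates over 60%. That the replicates were closer to the flanks than the knockout bin was thus follows from how the bins were picked.

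The 3 bins furthest above their flanks, again outside chromosome 18, are given in the same way. An intronic bin of Lingo1, a gene of a neuronal membrane protein (chr9:56484400-56484599), lies 1065 bp from its start and had 40 of 40, 30 of 34 and 22 of 26 observations methylated. Its flanks had 8.69% of 1530 observations (adjusted p = 3.64e-18, Fisher's exact test). At chr16:72219000-72219199, 444294 bp from the start of the axon guidance receptor gene Robo1, the counts were 42 of 46, 33 of 33 and 44 of 47, against 28.6% of 28 (adjusted p = 2.17e-08, Fisher's exact test). At chr15:82876800-82876999, 13164 bp from the start of Nfam1, they were 76 of 76, 94 of 116 and 15 of 20, against 20.5% of 205 (adjusted p = 4.52e-06, Fisher's exact test). All 3 libraries had at least 75% methylated observations in these bins.

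ChIP coverage fell off on both sides of the bin, as in low bins. The coverage of the bin itself was lower than in low bins and nearer to the limit of 15. Its medians in replicates 1 and 2 were 20.4 and 25.5, against 40.75 and 46.5 in low bins. The median over bins of the adjoining coverage, relative to the bin, was 16.2% in replicate 1, 23.5% in replicate 2 and 107% in the REST knockout. At 1000 bp the values were 0%, 2.94% and 129%. In low bins they were 18.2%, 23.3% and 96.8% next to the bin. The methylation of the precipitated DNA fell from 78.9% and 73.0% in the bin to 47.2% and 48.8% in the adjoining bins and was 60.3% and 58.2% at 1000 bp, while the knockout had 62.1%, 62.0% and 64.7%. The bin itself was selected for high values and its neighbours were not.

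**Figure D5:**
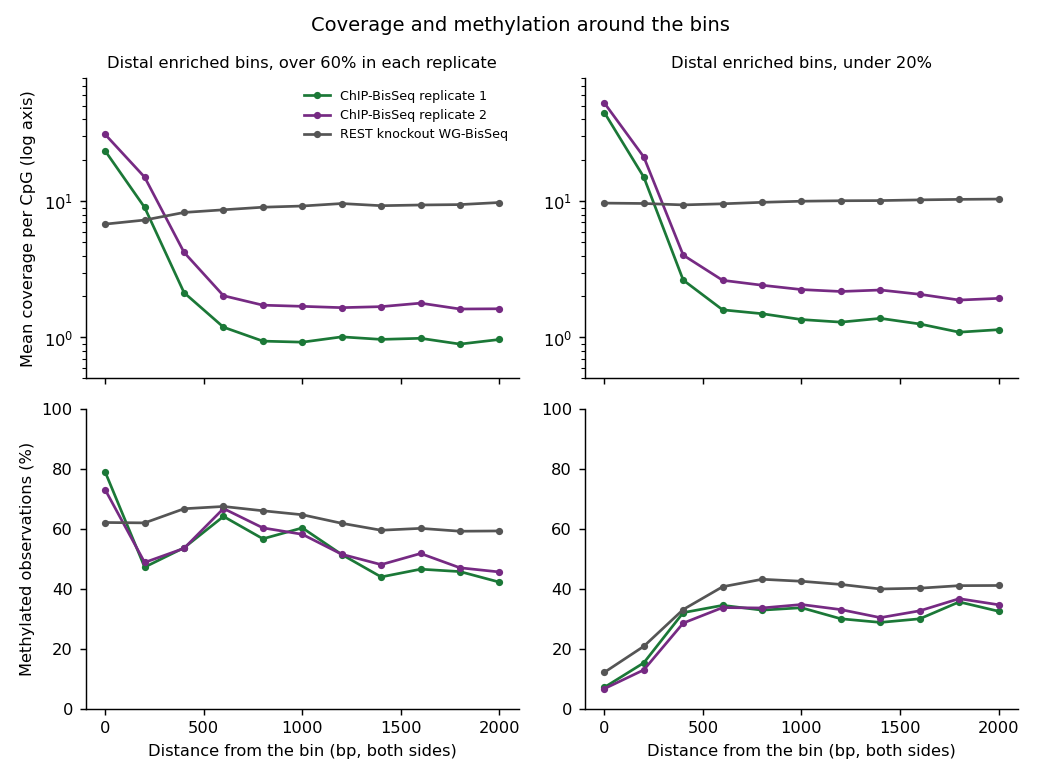
Mean coverage per CpG (top, log axis) and methylated observations (%, bottom) by distance from the bin (bp, both sides added) for highly methylated bins (left) and low bins (right), with a line per library. ChIP methylation of highly methylated bins falls from 78.9% and 73.0% to 47.2% and 48.8% in the adjoining bins, where the knockout line stays at 62.1% and 62.0%.

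Highly methylated bins had an enriched neighbour less often than the other classes. An adjoining bin was enriched for 357 of them (27.0%), compared to 38.1% of intermediate and 51.2% of low bins. In 201 bins (15.2%) a neighbour had higher coverage in both replicates, compared to 19.2% of intermediate and 15.6% of low bins. A low bin was adjacent to 70 highly methylated bins (5.29%), compared to 14.8% of intermediate and 30.6% of low bins. Of the 70 pairs of a highly methylated and a low bin, 27 had at least 10 knockout observations in both. The highly methylated bin was higher in 26 of them, with medians of 61.5% and 18.6%. A steep change in methylation over 200 bp was thus also found in the knockout library.

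Highly methylated bins lay mostly within introns and between genes. By their centre, 651 (49.2%) were intronic, 624 (47.2%) between genes, 33 (2.49%) in exons without coding sequence and 15 (1.13%) in coding exons. Of all distal enriched bins 39.7% were intronic and 54.4% between genes, and of low bins 34.1% and 59.7%. The median distance to a protein-coding start was 21242 bp, and the nearest bin lay at 1013 bp. Within 5 kb of a start lay 14.4% of highly methylated and 23.2% of low bins. By chromosome, between 3.19% (chromosome 19) and 7.03% (chromosome 1) of distal enriched bins were highly methylated.

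Gene families were looked at because CTCF or methylation is known to act in them. Zinc finger genes named Zfp held 6 highly methylated bins, in Zfp1, Zfp318, Zfp369, Zfp536, Zfp609 and Zfp663, or 0.454% against 0.414% of all distal enriched bins. The olfactory receptor gene Olfr701 and the vomeronasal receptor gene Vmn1r90 held 1 each. Protocadherin genes (Pcdh), whose promoter choice depends on CTCF, held none, against 19 low bins and 26 distal enriched bins in all. The listed imprinted genes likewise held none, against 9 low bins and 14 in all. With 5.59% of distal enriched bins highly methylated, counts of 0 in families of this size do not set them apart.

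In total 666 highly methylated bins lay in 603 protein-coding genes, and 551 genes held 1. By number, though not by share, Dnahc8 stood apart with 13 of its 28 distal enriched bins, next to 9 intermediate and 1 low. Gm20388, a gene model of 4434882 bp, held 9 of 137. Prkrip1 and Tmem194 held 3 of 4 each, and Wdr69 held 3 of 3. The 13 bins of Dnahc8 (chr17:30761299-31012209) had 83.8% of 1019, 79.7% of 2441 and, in the knockout, 77.6% of 410 observations methylated. Single bins ranged from 71.4% to 98.8% in replicate 1 and from 60.7% to 90.6% in replicate 2. A match was found in 6 of the 13. Of 6 bins tested in the knockout, 2 were lower than their flanks and none higher, against 53.6% lower and 2.19% higher over all enriched bins. The longest run of highly methylated bins with starts at most 1 kb apart was also in Dnahc8, with 5 bins from 30954400 to 30956199. The next had 3 bins, at chr13:111158800-111159399 near Gapt, and 1245 of 1282 runs were single bins.

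Coverage in Dnahc8 was high outside of the enriched bins as well. In its 1006 bins that were not enriched, the mean coverage was 1.16 in replicate 1 and 2.51 in replicate 2, compared to 0.423 and 0.890 in the bins of chromosome 17 that were not enriched. In the REST knockout library, the median coverage of these bins was 8.92 in the gene and 4.50 on the chromosome. The part of this higher coverage in the enrichment of the bins was not tested, and copy number was not measured.

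The bins with the highest coverage in both replicates were partly of this kind. An intronic bin of Dnahc8 (chr17:30790000-30790199) had 83 of 84 and 242 of 285 observations methylated at its single CpG and 4 of 5 in the knockout. At chr13:111158800-111158999, 11520 bp from the start of Gapt, the counts were 136 of 167, 285 of 427 and 5 of 12. This bin is printed because it holds 2 matches (capitals), both without a CpG.
chr13:111158800-111158999 (+): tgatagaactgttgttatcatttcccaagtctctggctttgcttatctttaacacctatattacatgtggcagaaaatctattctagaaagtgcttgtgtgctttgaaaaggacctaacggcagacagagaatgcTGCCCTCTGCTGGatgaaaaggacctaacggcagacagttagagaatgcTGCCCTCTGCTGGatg
At chr2:26502400-26502599, 12777 bp from the start of Fam69b, the counts were 107 of 166, 186 of 251 and 9 of 18. The knockout value was below both replicates in all 3 bins, each of which was chosen for its ChIP coverage and methylation.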

How the data were processed

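For each of the 3 libraries, the authors deposited whole-number counts per CpG, observations and methylated observations, on mm9. The submitters' processing notes name Bowtie 0.10.0.1. Whether PCR duplicates were removed is not given in the sources used here. All 16844027 listed autosomal positions were the C of a CpG of NCBIM37. Counts were summed over 200 bp bins with Python 3.11.15, NumPy 2.4.6, pandas 2.3.3, SciPy 1.17.1 and numba 0.67.0, and figures were drawn with matplotlib 3.10.9. Starts and exons were taken from GENCODE genes on NCBIM37. The genome sequence used carries no repeat marks, so copies were counted as shared 31-mers. The members and lists were chosen with earlier results of these data known.

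Fisher's exact tests per bin were adjusted (Benjamini-Hochberg) over all enriched bins with at least 10 knockout observations, and the scripts were tested on simulated data. Named bins follow a rule: the highest coverage with or without a unique match, the extremes of motif CpG methylation, flank difference and knockout methylation, the bins nearest to the 60% limit, and the genes and runs with most bins. None on chromosome 18 was named. Alternatives were other limits, depths, flanks and match rules and leaving out either replicate.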

Additional observations from a re-analysis of the deposited data

How the results depend on the processing

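Of 79 alternative values for 14 results, 38 stayed within the limits set, 41 moved and 0 changed sign. With a ChIP coverage minimum of 20, there were 568 highly methylated bins, and 32.2% had a match. Of 235 tested there, 56 were lower and 10 higher than their flanks. In the main setting, 53.6% of all enriched bins were lower and 2.19% higher than their flanks. Shares over all enriched bins were not computed for the settings here, other than leaving out a replicate. With that minimum, replicate 2 was lower than the knockout in 48 and higher in 67 of 782 tested bins chosen by replicate 1. Replicate 1 was lower in 7 and higher in 79 of 316 tested bins chosen by replicate 2. Over all enriched bins, the main setting had 14.8% lower and 1.73% higher in replicate 2, and 11.3% and 5.93% in replicate 1. A minimum of 10 gave 3274 bins. A methylation limit of 50% gave 2342 and of 70% gave 641. With the limit of 70%, 38 of 869 tested bins were lower in replicate 2. In replicate 1, 3 of 344 tested bins were lower and 88 higher. The knockout median was 64.7% with at least 5 observations, and 61.3% of the summed observations were methylated. Flanks to 2000 bp gave 49 higher bins of 574 tested, and at least 20 observations gave 19 of 311. At least 20 knockout observations left 61 of 891 tested bins lower in replicate 2. Matches were found in 49.4% with 1 mismatch, 47.7% within 100 bp and 20.9% without shared 31-mers. With 1 mismatch, the difference of motif CpGs was -17.1 points. As a mean over bins, adjoining coverage was 43.5% of the bin, against a median of 19.9% for both replicates. Any overlap put 3.93% in coding exons, and 2.27% had at least 50% of 31-mers elsewhere. Settings added after the data were seen gave matches within 200 bp in 50.0% and a motif difference within the same bins of -27.9 points. Also added then, 18 of 398 tested bins without an adjoining enriched bin were higher than their flanks. Leaving out a replicate left the other to choose alone and gave 4589 to 6095 bins and a knockout median of 53.8% to 63.0%. Without replicate 1, 526 of 2822 tested bins were lower and 181 higher than their flanks, against 46.6% and 2.99% of all then enriched. Without replicate 2, 579 of 1836 were lower and 70 higher, against 52.1% and 2.37%. A match was found in 23.3% to 24.7%, and the motif difference was -24.5 to -20.2 points. Adjoining coverage was 16.7% to 26.3%, and 25.0% to 35.9% had shared 31-mers. No paired analysis was possible because the REST knockout library has no replicate. The cause of each move was not tested, other than that fewer or more bins entered.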

Other observations

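In 110 distal enriched bins replicate 1 was over 60% and replicate 2 under 20% methylated, and in 9 bins the reverse was found. Of the 110 bins, 67 held 1 CpG and 26 (23.6%) a CTCF consensus match, and 36 had at least 10 REST knockout observations, with a median of 33.3%.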
